A study of Mus musculus with 6 samples.

Results

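Glial phagocytosis was followed through 9 genes, namely the receptors *Megf10*, *Megf11*, *Mertk*, *Axl* and *Tyro3*, the bridging proteins *Gas6*, *Pros1* and *Mfge8*, and the adaptor *Gulp1*. The genes were chosen by name and matched to the mouse gene identifiers of the deposited tables, and all 9 were found among the 35275 genes listed. The data are bulk RNA sequencing of whole spinal cord from adult C57BL/6 mice, with 3 *Sox2* cKO mice and 3 Ctrl mice. *Sox2* cKO mice carried *mGfap-Cre* and 2 floxed *Sox2* alleles (*mGfap-Cre:Sox2fl/fl*), so that Cre driven by the mouse *Gfap* promoter deleted *Sox2* in astrocytes, while every other cell of the cord was sequenced with them. For the Ctrl mice the sample labels give *mGfap-Cre:Sox2+/+*, whereas the methods describe floxed littermates, so the presence of Cre and the loss of *Sox2* cannot be told apart if the methods hold. The age was postnatal day 90 in one label and day 80 in another. The RNA integrity number was above 6.8 by the extraction protocol of the labels, and the methods state a higher limit. Its value in each library is not given. The columns of the tables carry numbers, with 2, 4 and 6 for Ctrl and 1, 3 and 5 for *Sox2* cKO, and which labelled mouse gave which library is not known.

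Clearance of dying cells, synapses and myelin debris begins when phosphatidylserine appears on the outer face of a membrane. GAS6 and protein S bind this lipid and dock on the receptor tyrosine kinases TYRO3, AXL and MERTK, the TAM family, whereas MFGE8 docks on integrins. MEGF10 is a receptor with epidermal growth factor-like repeats through which astrocytes engulf synapses together with MERTK, MEGF11 is its paralog, and GULP1 is a cytoplasmic adaptor that links engulfment receptors to the machinery inside the cell. In bulk tissue, fewer cells of a type and less RNA per cell cannot be told apart, which applies to every value given here.

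*Mertk* (ENSMUSG00000014361, chr2:128698956-128802894, plus strand) stands as a nearest gene in the study's list of sites bound by SOX2 in adult cerebral cortex. Both of its listed sites lie in introns by GENCODE M21 in mm10, at chr2:128709436-128709536 and chr2:128738958-128739058, or 10480 and 40002 bases from the start of the gene. They are shown because *Mertk* and *Megf10* are the only members on that list and the first site carries the ACAAAG core of the SOX motif. The study lists such sites at more than 1 cutoff, and absence from this list is not evidence that a member is unbound. The sequences are on the minus strand, 5′ to 3′, with the listed binding sequence in capitals.
Mertk intron site 1: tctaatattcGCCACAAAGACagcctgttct
Mertk intron site 2: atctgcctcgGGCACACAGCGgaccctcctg
The site nearest *Megf10* is not printed. Promoter windows from RefSeq (GRCm38.p6), running from 250 bases before to 50 bases after the start of a gene, were given for 7 members and searched on both strands for ACAAAG. Among these 7 windows the letters were found in that of *Pros1*, starting at -183, and 18.7% of all 32851 promoter windows hold them. The window of *Pros1* (ENSMUSG00000022912, on chr16) spans chr16:62854057-62854356 on the plus strand and is shown with the match in capitals.
Pros1 promoter window: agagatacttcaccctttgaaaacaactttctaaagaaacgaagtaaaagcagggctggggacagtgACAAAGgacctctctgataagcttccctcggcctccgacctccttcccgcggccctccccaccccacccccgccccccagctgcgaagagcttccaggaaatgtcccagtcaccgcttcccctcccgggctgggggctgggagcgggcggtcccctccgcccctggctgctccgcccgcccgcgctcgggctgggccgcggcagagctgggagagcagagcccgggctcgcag
A match of these letters is a description of the sequence and not a sign of binding in spinal cord.

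*Sox2* itself, the deleted gene, was examined first. In CPM, its count scaled to the total count of the library after TMM normalization, it was 19.9, 14.8 and 29.5 in libraries 2, 4 and 6 (Ctrl) against 3.16, 2.69 and 2.98 in libraries 1, 3 and 5 (*Sox2* cKO), with no overlap between the groups. Libraries held between 21507911 and 28392184 counts on genes, and the rarest member, *Gulp1*, still had at least 121 counts in each. Each of the 15 pairs of libraries differed by more than sampling noise (chi-square of at least 6.74 per degree of freedom). Ctrl library 2 gave 10.792 and 14.663 against *Sox2* cKO libraries 5 and 3. Against Ctrl libraries 4 and 6 it gave 24.954 and 29.186, and its value against *Sox2* cKO library 1 lay between these. Library 2 was thus nearer to libraries 5 and 3 than to the other Ctrl libraries. Libraries 4 and 6 gave 9.978 against each other and between 48.832 and 83.386 against *Sox2* cKO. The cause was not tested. All astrocyte markers were detected. Their summed CPM was 7472, 8318 and 9629 in Ctrl and 5283, 5486 and 5601 in *Sox2* cKO. In edgeR's test without a correction for gene length, 6 of the 10 fell.

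Of the 9 engulfment genes, *Axl* and *Megf10* were lower in *Sox2* cKO cord, to 79.7% and 78.3% of the Ctrl level, and the other 7 did not pass the test. All 9 passed edgeR's filter on low counts. The test was edgeR's quasi-likelihood test on the counts of all genes, with Benjamini-Hochberg adjustment over the 16137 genes tested and a call at adjusted p below 0.05. The 2 members called are 22.2% of the members, and 24.6% of all genes tested were called (12.4% lower and 12.2% higher), so this share is near the background and is not a result about engulfment genes as a group. Groups did not overlap in CPM for 5 of the 9, with 4 lower and 1 higher in *Sox2* cKO, against 44.7% of all genes tested (22.1% lower and 22.6% higher). Log2 fold changes (*Sox2* cKO over Ctrl) were below 0 for 6 members, with a median of -0.16 over the 9 and of 0.02 over all genes tested. After the correction for gene length described with *Megf10* below, these medians were -0.06 and 0.0. DESeq2 called the same 2 members, in a fit that called 28.1% of the genes it tested.

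**Figure D1:**
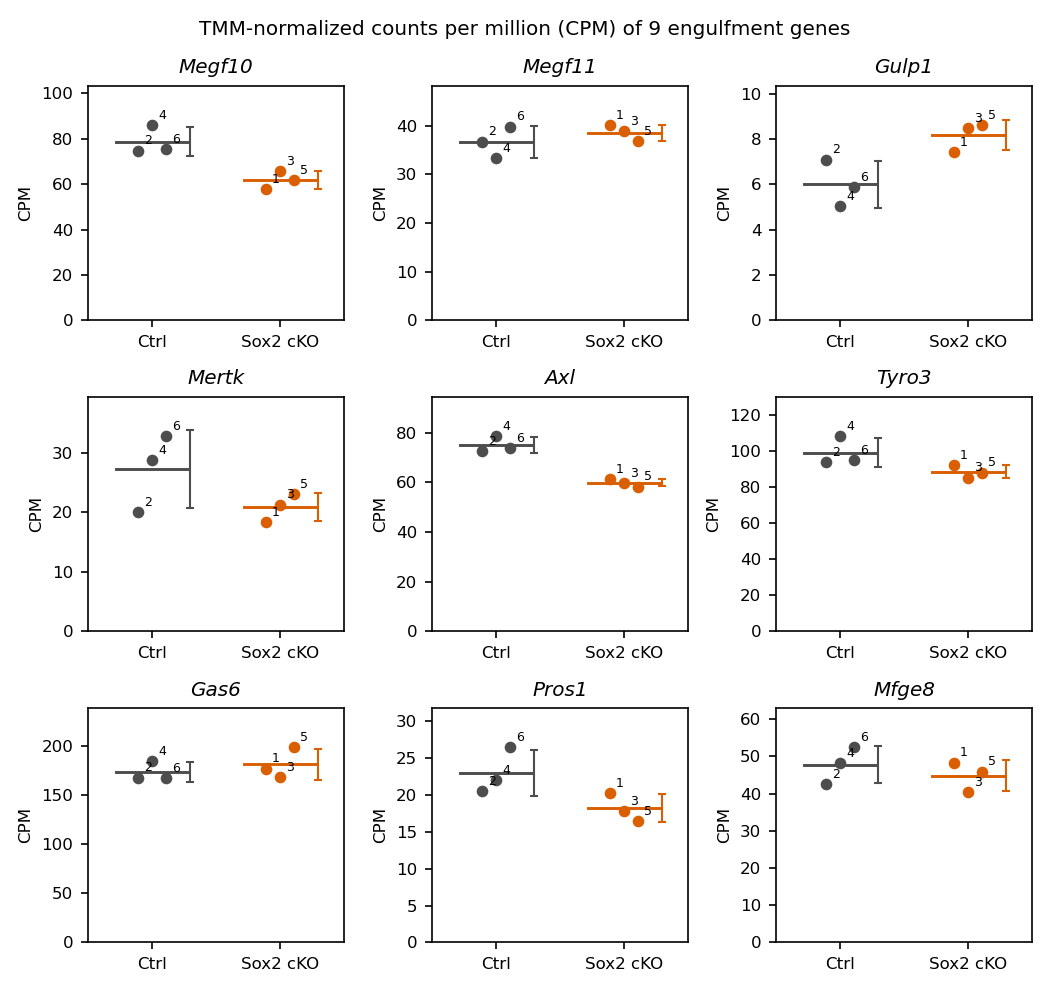
TMM-normalized CPM of the 9 genes in each library, with 1 panel per gene and an axis from 0. Points are libraries with their numbers, horizontal lines are group means and bars are SD (n = 3). *Axl*, *Megf10*, *Pros1* and *Tyro3* are lower without overlap in *Sox2* cKO, *Gulp1* is higher without overlap, and the groups of the other 4 genes overlap.

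*Megf10* (ENSMUSG00000024593, on chromosome 18), the engulfment receptor of astrocytes, was measured at 74.7, 86.0 and 75.3 CPM in libraries 2, 4 and 6 (Ctrl) against 57.7, 65.6 and 61.6 CPM in libraries 1, 3 and 5 (*Sox2* cKO). The highest *Sox2* cKO library stayed under the lowest Ctrl library. *Megf10* fell from 78.7 ± 6.36 to 61.6 ± 3.96 CPM (SD, n = 3 in each group), with a log2 fold change of -0.35 and a standard error of 0.09 (adjusted p = 0.02 from edgeR). Long genes tended to be lower in *Sox2* cKO across these data, and *Megf10* is long, at 7514 bases. After a correction that removed from every library its own trend of counts with gene length, the log2 fold change of *Megf10* was -0.06 and no longer passed the test (standard error 0.07, adjusted p = 0.55 from edgeR). The call was also lost when Ctrl library 4 (adjusted p = 0.093), *Sox2* cKO library 1 (adjusted p = 0.082) or *Sox2* cKO library 5 (adjusted p = 0.054) was left out of edgeR's fit, and it held without library 2, 3 or 6. The log2 fold change was between -0.40 and -0.28 in these 6 fits, and DESeq2 called *Megf10* in 5 of 6. The study had shown *Megf10* from these same libraries, so its direction here is not independent evidence. The study's own test of differential expression used these libraries, so the same limit holds for every member.

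*Megf11* (ENSMUSG00000036466, chr9:64385626-64709205), the paralog of *Megf10*, was measured at 36.7, 33.3 and 39.8 CPM in libraries 2, 4 and 6 (Ctrl) against 40.1, 38.8 and 36.8 CPM in libraries 1, 3 and 5 (*Sox2* cKO). The groups overlapped, and the log2 fold change of *Megf11* was 0.07, no larger than its standard error of 0.09 (adjusted p = 0.57 from edgeR). At 6680 bases *Megf11* is close in length to *Megf10*, and the length correction moved it by a similar amount in the same direction, to 0.33 (adjusted p = 0.061 from edgeR), short of the threshold. The ratio of *Megf10* to *Megf11* within a library does not depend on how libraries are scaled against each other. In FPKM, the count scaled to the gene length in kilobases and to the total count of the library, this ratio was 1.81, 2.29 and 1.68 in Ctrl against 1.28, 1.50 and 1.49 in *Sox2* cKO, without overlap. The difference was -0.43 on the log2 scale and -0.39 after the length correction. A two-sided exact permutation test gave p = 0.1 (0.25 after adjustment over the 5 ratios compared), and 3 mice against 3 cannot give a smaller value.

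*Axl* (ENSMUSG00000002602, chr7:25757273-25788705), the TAM receptor that binds GAS6 alone, was measured at 72.5, 78.6 and 73.8 CPM in libraries 2, 4 and 6 (Ctrl) against 61.3, 59.8 and 58.3 CPM in libraries 1, 3 and 5 (*Sox2* cKO). All *Sox2* cKO libraries were below all Ctrl libraries, and the libraries of each group lay close together. *Axl* fell from 75.0 ± 3.20 to 59.8 ± 1.47 CPM (SD, n = 3 in each group), or to 79.7% of Ctrl, with a log2 fold change of -0.33 and a standard error of 0.07 (adjusted p = 0.016 from edgeR). It also passed the test after the length correction, with a log2 fold change of -0.25 (adjusted p = 0.033 from edgeR), in a fit that called 13.0% of all genes tested. *Axl* was then the only one of the 9 members called. With 1 library left out, the length-corrected value was between -0.28 and -0.22 and the call held in 1 of 6 fits, the one without Ctrl library 2. Without the correction and with 1 library left out in turn, the log2 fold change of *Axl* was between -0.35 and -0.29. The call of edgeR held without Ctrl library 2 or 6 and was lost without Ctrl library 4 (adjusted p = 0.08), *Sox2* cKO library 1 (0.066), 3 (0.057) or 5 (0.051), while DESeq2 called *Axl* in all 6 such fits. These fits differ in how many genes they call at all, since edgeR called 36.9% of the genes tested without library 2, 0.159% without 4, 6.54% without 6, 0.0485% without 1, 8.31% without 3 and 16.3% without 5. The shares for DESeq2 in the same order were 35.5, 14.9, 17.0, 17.5, 20.4 and 22.8%.

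*Mertk*, the TAM receptor that binds both GAS6 and protein S, was measured at 20.0, 28.8 and 32.8 CPM in libraries 2, 4 and 6 (Ctrl) against 18.3, 21.3 and 23.0 CPM in libraries 1, 3 and 5 (*Sox2* cKO). Ctrl library 2 lay within the *Sox2* cKO range, and the SD of 6.56 around the Ctrl mean of 27.2 CPM was the widest, relative to the mean, of any member in either group. The log2 fold change of -0.38 was as large as that of *Axl* but had a standard error of 0.17 and did not pass the test (adjusted p = 0.12 from edgeR). The value moved with the Ctrl library left out. Without library 2 the log2 fold change of *Mertk* was -0.56 and passed (adjusted p = 0.0048 from edgeR), in a fit that called 36.9% of all genes tested, and without library 6 it was -0.22 (adjusted p = 0.38 from edgeR). After the length correction the log2 fold change of *Mertk* was -0.29 (adjusted p = 0.22 from edgeR). Without library 2 it was then -0.46 and passed (adjusted p = 0.013 from edgeR), in a fit that called 26.9% of genes tested. No fit of edgeR that left out another library called *Mertk*, with or without the correction.

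*Tyro3* (ENSMUSG00000027298, chr2:119797733-119818104), a TAM receptor prominent in neurons, was measured at 93.8, 108 and 95.1 CPM in libraries 2, 4 and 6 (Ctrl) against 92.3, 85.3 and 88.1 CPM in libraries 1, 3 and 5 (*Sox2* cKO). Library 1 came close to library 2 without reaching it, so the groups did not overlap. The log2 fold change of -0.16 did not pass the test (standard error 0.08, adjusted p = 0.17 from edgeR) and was -0.06 after the length correction. The make-up of the TAM family was then described within libraries, with no test. *Tyro3* made up 49.3, 49.1 and 46.1% of the summed FPKM of the TAM receptors in libraries 2, 4 and 6 (Ctrl) against 52.6, 50.2 and 50.9% in libraries 1, 3 and 5 (*Sox2* cKO). *Axl* made up 39.8, 37.3 and 37.4% in Ctrl against 36.5, 36.8 and 35.3% in *Sox2* cKO. *Mertk* made up 10.9, 13.5 and 16.5% in Ctrl against 10.8, 13.0 and 13.8% in *Sox2* cKO. The shares of *Tyro3* were thus higher and those of *Axl* lower in *Sox2* cKO without overlap, and those of *Mertk* overlapped. The summed level was 42.4, 47.5 and 43.6 FPKM in Ctrl and 41.6, 39.3 and 39.2 FPKM in *Sox2* cKO. The ratio of *Axl* to *Mertk* differed between groups by 0.03 and that of *Tyro3* to *Mertk* by 0.20 on the log2 scale, and neither passed a two-sided exact permutation test (p = 0.9 and p = 0.4). With 1 library left out they were between -0.13 and 0.21 and between 0.02 and 0.37.

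None of the 3 bridging proteins passed the test in edgeR or DESeq2, and 1 of them, *Pros1*, had an unadjusted p-value below 0.05 in edgeR. *Gas6* (ENSMUSG00000031451, chr8:13465374-13494490), the ligand of all TAM receptors, was measured at 168, 185 and 167 CPM in libraries 2, 4 and 6 (Ctrl) against 177, 168 and 199 CPM in libraries 1, 3 and 5 (*Sox2* cKO). The groups overlapped. *Gas6* had a log2 fold change of 0.07 with a standard error of 0.09 (adjusted p = 0.62 from edgeR), and one of -0.02 after the length correction. *Gas6* shares 34 exonic bases with *Tmem255b* on the opposite strand, and since the strand setting of the counting is not stated, reads on these bases cannot be assigned.

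*Pros1*, which encodes protein S, was measured at 20.5, 22.0 and 26.5 CPM in libraries 2, 4 and 6 (Ctrl) against 20.3, 17.8 and 16.5 CPM in libraries 1, 3 and 5 (*Sox2* cKO). Libraries 2 and 1 lay next to each other at the edge of the groups, which did not overlap. The log2 fold change was -0.34 with a standard error of 0.12 and missed the threshold (adjusted p = 0.067 from edgeR), as it did after the length correction, again at -0.34 (adjusted p = 0.079 from edgeR). Without Ctrl library 2 it passed, at -0.41 (adjusted p = 0.027 from edgeR), and without Ctrl library 6 it was -0.22 (adjusted p = 0.25 from edgeR). The ratio of *Gas6* to *Pros1* in FPKM was 10.4, 10.7 and 8.04 in Ctrl against 11.1, 12 and 15.3 in *Sox2* cKO. It was higher in every *Sox2* cKO library, by 0.40 on the log2 scale (two-sided exact permutation test, p = 0.1, and 0.25 adjusted over the 5 ratios). Without Ctrl library 6 this difference was 0.27 and without *Sox2* cKO library 5 it was 0.26.

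*Mfge8* (ENSMUSG00000030605, chr7:79133768-79149060), a secreted protein that bridges phosphatidylserine to integrins and is made by astrocytes, was measured at 42.6, 48.2 and 52.5 CPM in libraries 2, 4 and 6 (Ctrl) against 48.3, 40.3 and 45.9 CPM in libraries 1, 3 and 5 (*Sox2* cKO). The groups overlapped. *Mfge8* had a log2 fold change of -0.09 with a standard error of 0.10 (adjusted p = 0.53 from edgeR), and limma on log2(FPKM + 1) gave 0.01, in a fit where the median of all genes was 0.09. The length correction gave -0.25 (adjusted p = 0.14 from edgeR), and -0.35 with a call (adjusted p = 0.014 from edgeR) when Ctrl library 2 was also left out. The size of the value thus depended on the scale, and so did its sign. Among the receptors of MFGE8, integrin αV (*Itgav*) had a log2 fold change of -0.06 (adjusted p = 0.67 from edgeR) and its partner integrin β5 (*Itgb5*) fell by 0.35 on the log2 scale (adjusted p = 0.04 from edgeR). Integrin β3 (*Itgb3*) had a log2 fold change of -0.30 and did not pass the test (adjusted p = 0.15 from edgeR).

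*Gulp1* (ENSMUSG00000056870, chr1:44551511-44796838) was the one member higher in every *Sox2* cKO library. It was measured at 7.09, 5.03 and 5.89 CPM in libraries 2, 4 and 6 (Ctrl) against 7.42, 8.46 and 8.61 CPM in libraries 1, 3 and 5 (*Sox2* cKO). On average this was 8.17 ± 0.648 against 6.00 ± 1.03 CPM (SD, n = 3 in each group), or 136% of Ctrl. The log2 fold change of 0.45 had a standard error of 0.16 and missed the threshold (adjusted p = 0.063 from edgeR), and was 0.42 after the length correction. Limma on log2(FPKM + 1) called it, with a log2 fold change of 0.38 (adjusted p = 0.041), in a fit that called 24.3% of the genes tested. That fit leaned upward, with 18.1% of genes called higher, 6.2% called lower and a median of 0.09 over all genes. On that scale the pseudocount draws low genes toward 0. Without Ctrl library 2 edgeR called it as well, at 0.58 (adjusted p = 0.017).

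**Figure D2:**
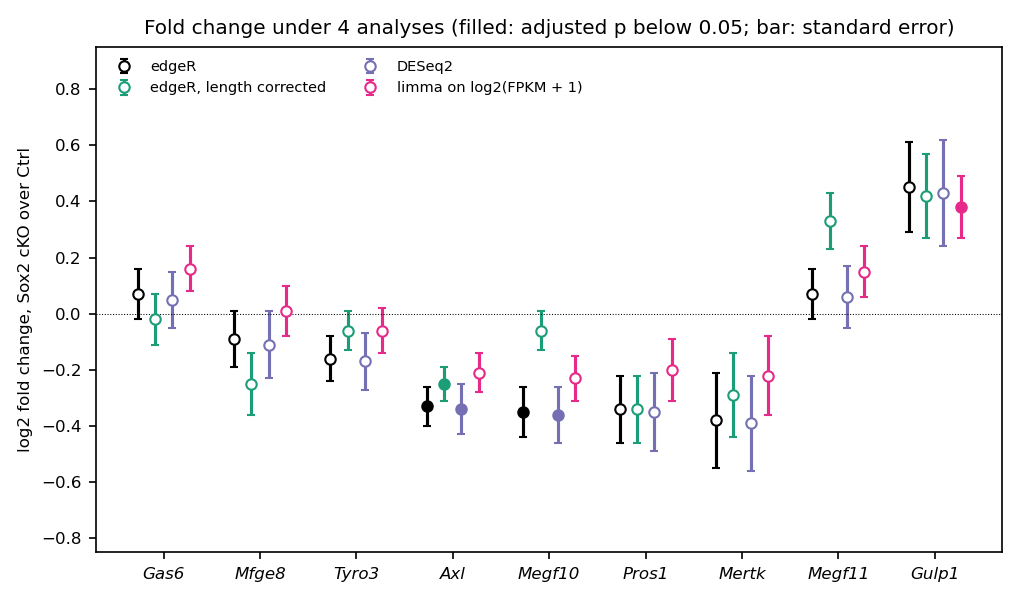
Log2 fold change (*Sox2* cKO over Ctrl) of the 9 genes by edgeR, by edgeR with the length correction, by DESeq2 and by limma on log2(FPKM + 1), with bars of 1 standard error. Filled points have an adjusted p below 0.05. *Axl* is filled in 3 of the 4 analyses, *Megf10* in 2 and *Gulp1* in 1, and the length correction takes *Megf10* from -0.35 to -0.06 and *Megf11* from 0.07 to 0.33.

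The members were also set beside the trend of all genes with length. Across the genes tested, Spearman's rho between length and log2 fold change was -0.48, a description across genes that share the same 6 libraries. In 5 length groups with nearly equal numbers of genes, the median log2 fold change ran from 0.30 in the shortest group to -0.25 in the longest. *Megf10* and *Megf11* were in the longest group, from 4872 bases, in which 36.0% of genes were called lower and 1.74% higher. *Mertk*, *Axl* and *Tyro3* were in the next group, with a median of -0.07 and 14.2% of genes called lower. *Gulp1* and *Pros1* were in the middle group, with a median of 0.04, and *Gas6* and *Mfge8* in the next shorter group, with a median of 0.15. The part of length in the calls was not tested beyond the correction.

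**Figure D3:**
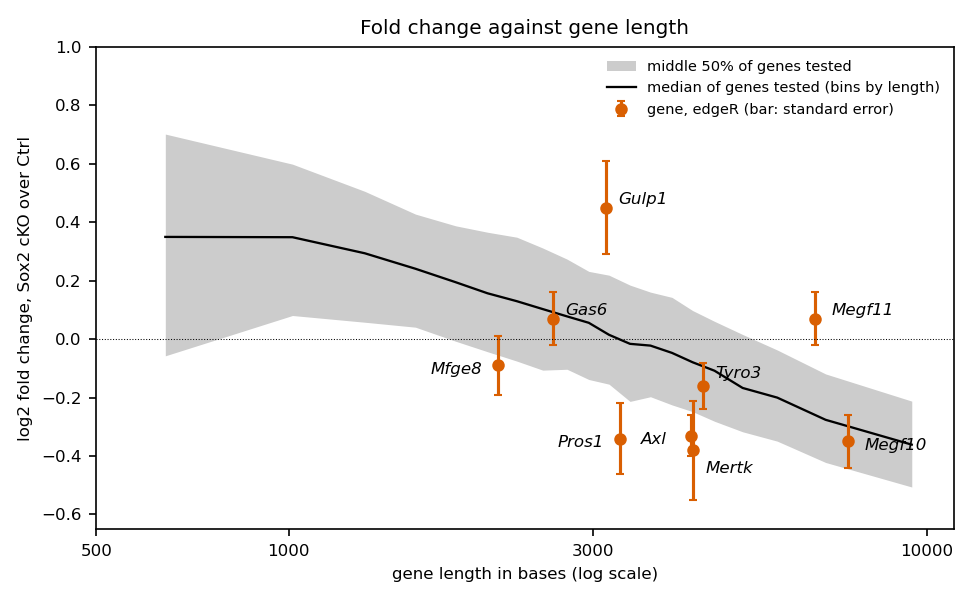
Log2 fold change (*Sox2* cKO over Ctrl, edgeR) against gene length in bases on a log axis. The line and band are the median and the middle 50% of the genes tested in bins of length, and points are the 9 genes with bars of 1 standard error. *Megf10* lies close to the falling line, *Megf11* lies above the band at nearly the same length, *Gulp1* lies above it, *Axl*, *Mertk*, *Pros1* and *Mfge8* lie below it, and *Gas6* and *Tyro3* lie within it.

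Levels of different genes were compared per length, in FPKM. The FPKM carry no TMM factors, which were 0.943 to 0.994 in Ctrl and 1.01 to 1.06 in *Sox2* cKO, so values in *Sox2* cKO stand higher against Ctrl in FPKM than in CPM. *Gas6* was the highest member in Ctrl cord at a mean of 64.4 FPKM, and 5.43% of the genes tested were above it. It stood 2.97-fold above *Mfge8* at 21.7 FPKM. *Mfge8* and *Tyro3*, at 21.4 FPKM, had overlapping ranges and cannot be ranked against each other. *Axl* followed at 17.0 FPKM and *Megf10* at 10.1 FPKM, each without overlap with its neighbours. *Pros1* at 6.70, *Mertk* at 6.07 and *Megf11* at 5.29 FPKM overlapped as neighbours, and *Gulp1* was lowest at 1.85 FPKM, with 72.0% of the genes tested above it. In *Sox2* cKO the first 5 places were held by the same genes, and *Megf11* at 5.97 FPKM moved from place 8 to place 6 ahead of *Pros1* and *Mertk*. There *Megf11* overlapped with *Pros1* and *Pros1* with *Mertk*, while *Megf11*, from 5.58 FPKM, lay above all values of *Mertk*, up to 5.42 FPKM. The order of the Ctrl means was the same for all 9 genes in TPM, which scales the counts per length to 1 common sum in each library.

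**Figure D4:**
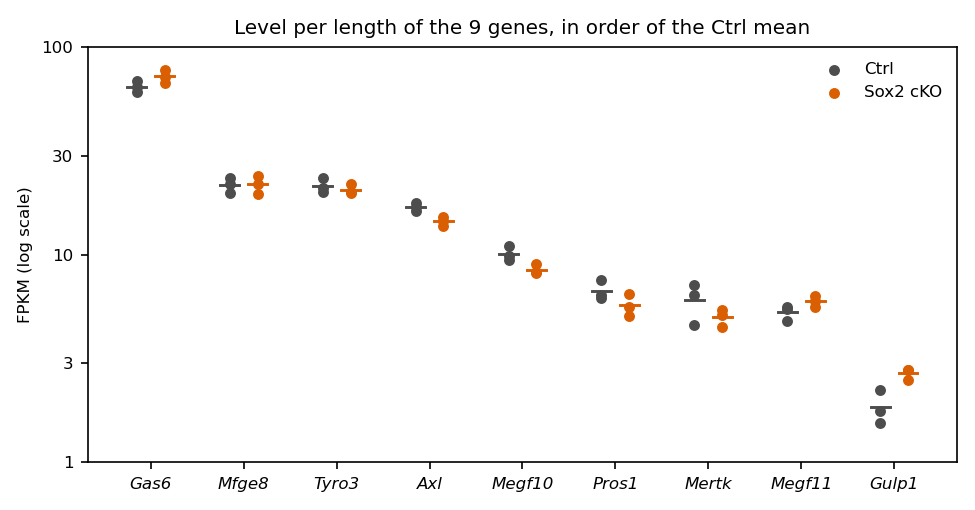
FPKM of the 9 genes on a log axis, in the order of the Ctrl mean. Points are libraries of Ctrl and *Sox2* cKO and short lines are group means. Ligands and receptors of the TAM family span from *Gas6* at 64.4 FPKM to *Mertk* at 6.07 FPKM in Ctrl, and *Gulp1* is lowest in both groups.

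The genes whose log2 CPM followed *Megf10* most closely over the 6 libraries were *Xkr7* (r = 0.9968), *Bcorl1* (r = 0.9967) and *Phlpp1* (r = 0.9957), among 13314 genes with a mean count of at least 50. Such values were common, since 408 of these genes (3.06%) had r of 0.95 or more with *Megf10*, and all were measured in the same 6 libraries. For *Mertk* they were *Igf2bp3* (r = 0.9954), *Hnrnpd* (r = 0.9929) and *Insyn1* (r = 0.9919), with 179 genes (1.34%) at 0.95 or more.

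Beyond the members, 59 other genes of the engulfment pathway were read from the same fit in 7 lists. Of the 57 tested, 14 were called lower and 5 higher in *Sox2* cKO, or 33.3%. Of all genes tested 24.6% were called, with 12.4% lower and 12.2% higher, the background for each list below. After the length correction 5 were lower and 1 was higher, or 10.5% against 13.0%. The median log2 fold change of the 57 was -0.12 before and -0.05 after the correction, and their median length was 4315 bases against 3060 for all genes tested. The excess of calls over the background was therefore present without the correction and absent with it. Without Ctrl library 4 or *Sox2* cKO library 1 edgeR called none of the 57 (21 and 24 had an unadjusted p-value below 0.05), and DESeq2 called 8 and 10.

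Among the other engulfment receptors, 2 of the 12 tested were lower and 2 higher. *Lrp1*, a scavenger receptor of glia that also takes up myelin debris, fell by 0.69 on the log2 scale (adjusted p = 0.015 from edgeR) but by 0.20 after the length correction, at 14888 bases. The microglial receptor *Trem2* and its signalling partner *Tyrobp* rose by 0.74 and 1.19 on the log2 scale (adjusted p = 0.037 and 0.022 from edgeR). *Trem2* was at 8.30, 6.19 and 5.99 CPM in Ctrl against 15.5, 9.99 and 8.76 CPM in *Sox2* cKO, and it was called after the length correction too, whereas *Tyrobp* was not. *Timd4* was below the filter and *Havcr1* was listed at 0 in every library.

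Of the 7 other opsonins and bridging proteins, 2 were higher and none lower. They were *C1qb* and *C1qc*, chains of the first complement component, which tags synapses for removal, with log2 fold changes of 0.75 and 0.65 (adjusted p = 0.046 and 0.045 from edgeR). *C1qb* was measured at 39.5, 27.4 and 29.4 CPM in Ctrl against 79.4, 44.0 and 39.2 CPM in libraries 1, 3 and 5 (*Sox2* cKO), so the groups overlapped. *C1qc* was at 31.0, 24.8 and 26.6 CPM in Ctrl against 61.1, 36.9 and 31.9 CPM in *Sox2* cKO, without overlap, and library 1 was the highest for both. DESeq2 called *C1qc* and the third chain, *C1qa*, higher and *Edil3* lower, and did not call *C1qb* (adjusted p = 0.1). Neither *C1qb* nor *C1qc* passed after the length correction (adjusted p = 0.19 and 0.22 from edgeR).

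In the list for phosphatidylserine exposure or retention, which also holds the chaperone *Calr*, 2 of 8 genes fell and none rose. *Xkr4*, a scramblase subunit, fell by 0.66 on the log2 scale (adjusted p = 0.023 from edgeR) and the flippase *Atp11a* fell by 0.39 (adjusted p = 0.022 from edgeR). After the length correction *Xkr4* was still called, and *Atp11a*, at 7549 bases, was not, with a log2 fold change of -0.10 (adjusted p = 0.3 from edgeR). For the do-not-eat-me signal, *Cd47* and its receptor *Sirpa* had log2 fold changes of -0.04 and -0.03, and for the sheddases that cut TAM receptors, *Adam10* and *Adam17* had -0.05 and -0.20. None of these 4 passed the test in edgeR or DESeq2, and 0 had an unadjusted p-value below 0.05 in edgeR.

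Of 14 genes of the engulfment machinery, which moves the actin cytoskeleton around the target, 5 fell and 1 rose. Their median length was 4352 bases, against 3060 for all genes tested. *Dock1*, the exchange factor that activates RAC1, fell by 0.48, the adaptor *Crkl* by 0.44, the dynamin *Dnm2* by 0.36 and *Elmo2*, the partner of DOCK1, by 0.34 on the log2 scale (adjusted p = 0.016, 0.035, 0.018 and 0.022 from edgeR). *Dnm2* was the 1 gene of the 14 called after the length correction. Of 12 genes of phagosome maturation, 5 fell and none rose, where 12.4% of all genes tested were called lower. *Rubcn*, which acts in LC3-associated phagocytosis, fell by 0.40, *Pik3r4*, a subunit of the VPS34 lipid kinase, by 0.34, *Mon1b*, which helps exchange RAB5 for RAB7 on the phagosome, by 0.33 and *Uvrag*, another partner of VPS34, by 0.26 on the log2 scale (adjusted p = 0.017, 0.032, 0.035 and 0.049 from edgeR). None of these 4 passed after the length correction, with log2 fold changes between -0.26 and -0.18 and adjusted p between 0.059 and 0.14 from edgeR, and *Rab5a* was then the 1 gene of the 12 called.

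**Figure D5:**
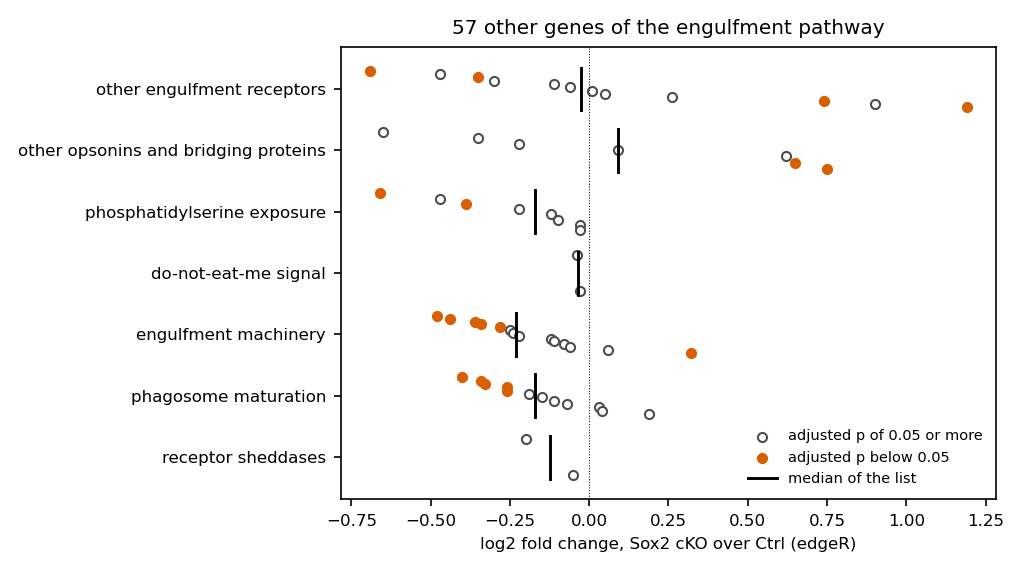
Log2 fold change (*Sox2* cKO over Ctrl, edgeR) of 57 other genes of the engulfment pathway in 7 lists. Filled points have an adjusted p below 0.05 and vertical lines are list medians. The highest called points are *Tyrobp*, *C1qb*, *Trem2* and *C1qc*, and called genes of the machinery and maturation lists lie left of 0 apart from *Rhog* at 0.32.

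The cell types of the cord were read from markers, and their part in the results was not tested. By edgeR, 12.4% of all genes tested were called lower and 12.2% higher. Astrocyte markers had a median log2 fold change of -0.40, lower than that of *Axl* at -0.33, and *Gfap* fell by 1.11 on the log2 scale (adjusted p = 0.01 from edgeR). After the length correction 3 of the 10 astrocyte markers were called lower, against 6 before it. Their median was then -0.27, with *Axl* at -0.25. None of the 8 microglial markers was called by edgeR (3 had an unadjusted p-value below 0.05), and their summed CPM of 276 to 324 in Ctrl and 229 to 286 in *Sox2* cKO overlapped, while DESeq2 called 3 of them lower. The median log2 fold change of the microglial markers was -0.11. Of 4 border macrophage markers 1 was higher (*Pf4*), and the summed CPM was 7.05 to 14.0 in Ctrl and 13.4 to 20.0 in *Sox2* cKO. Of 5 endothelial and 5 pericyte markers 1 each was higher (*Ly6c1* and *Kcnj8*), with the highest sums of both lists in *Sox2* cKO library 1. Of 5 markers of oligodendrocyte precursors, in which *Megf11* is also used as a marker, 4 were lower, and their summed CPM was 162 to 184 in Ctrl and 106 to 139 in *Sox2* cKO without overlap. The median log2 fold change of these precursor markers was -0.37 before and -0.35 after the length correction. Their median length was 5195 bases, and 2 of the 5 were called lower after the length correction. Of 3 ependymal markers 1 was lower (*Foxj1*). By edgeR, no marker of oligodendrocytes (6), neurons (5), Schwann cells (4) or meningeal fibroblasts (5) was called, with an unadjusted p-value below 0.05 for 1, 1, 0 and 0 of them. DESeq2 called 2 of the oligodendrocyte markers lower, 1 neuronal marker higher and 0 of the other lists. The meningeal fibroblast sum was 197 CPM in Ctrl library 6 and at least 417 CPM in every other library, and the Schwann cell sum was likewise lowest there, at 22.9 CPM. Library 6 was also the highest in *Mertk*, *Pros1* and *Mfge8*. It had the highest sums of astrocyte (9629), microglial (324), oligodendrocyte precursor (184) and ependymal (52.1) markers in CPM as well. Its sums of border macrophage (7.05) and pericyte (193) markers were the lowest.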

How the data were processed

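Poly(A) RNA of whole spinal cord was sequenced in 3 Ctrl and 3 *Sox2* cKO mice. The authors aligned single-end reads of directional libraries to mm10 with STAR and counted them per gene with HTSeq, and deposited these counts without normalization. A table of FPKM, which the authors derived from those counts, gave the gene lengths. Per the submitters' processing notes the versions were STAR 2.5 and HTSeq 0.6.1, and the strand setting of the counting is not given in the sources used here. Libraries were put in groups by the column numbers. The grouping was checked against the group means listed for 1999 genes, all of which matched within a tolerance of 0.0001. That the libraries come from separate mice is taken from the sample labels, and intervals and tests cover the spread between these 3 and 3 libraries.

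Symbols, positions and types came from GENCODE M21 (GRCm38, the assembly of mm10), and 34490 of 35275 identifiers matched. The members and gene lists were chosen with earlier results of these data known. Members were all named, *Sox2* was named as the check of the deletion, and up to 4 genes per pathway list were named by the largest absolute log2 fold change among those called, or among those tested where none was called. *Itgav*, *Itgb3*, *Calr*, *Rhog*, *Rab5a*, *C1qa*, *Edil3*, *Timd4*, *Havcr1* and the markers named were added after their values were seen. The count test was that of edgeR 4.0.16 in R 4.3.3 (filterByExpr, TMM, quasi-likelihood test, no covariates, Benjamini-Hochberg adjustment at 0.05). Standard errors are the fold change over the root of the test statistic. The biological coefficient of variation was 0.119. Ratios were compared by exact permutation tests in scipy 1.17.1. Alternatives were DESeq2 1.42.0, upper quartile normalization, a filter of 10 counts in every library or none, limma 3.58.1 on FPKM in log2 after a pseudocount of 1 or 0.1 (mean FPKM from 0.5), a length correction (lowess curve, span 0.3, per library, as offsets in edgeR), and leaving out each library. Leaving out libraries with DESeq2 and with the length correction was added once results were known, as were the shares of the TAM family. In simulated data without a trend with length, edgeR recovered 77% of 200 genes changed by a log2 fold change of 1 among 15972 genes. Unchanged genes were 4.3% of its calls there. With a length trend added to the simulated data, genes outside the 200 were 94% of the calls of edgeR. With the length correction they were 6.4% of the calls. The size of the added trend was set in advance and not fitted to these data.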

Additional observations from a re-analysis of the deposited data

How the results depend on the processing

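The number of members called was 2 by edgeR and by DESeq2, 1 with the length correction (*Axl*) and 1 by limma on log2(FPKM + 1) and on log2(FPKM + 0.1) (*Gulp1*), and between 0 and 6 when 1 library was left out, over fits with edgeR, DESeq2 and the length correction. Without Ctrl library 2 edgeR called 5 (*Axl*, *Megf10*, *Mertk*, *Pros1* and *Gulp1*). Without Ctrl library 4 edgeR called 0, although 3 had an unadjusted p-value below 0.05 and DESeq2 called 1. Without *Sox2* cKO library 1 or library 5 edgeR called 0, with 4 and 3 unadjusted. Pathway genes called were 19 by edgeR, 6 with the length correction, 8 with either limma fit, and between 0 and 26 without 1 library. Over all genes, 3970 were called by edgeR, 4334 by DESeq2, 2105 with the length correction and between 8 and 6119 without 1 library. Upper quartile normalization called 1652 lower and 2313 higher genes and limma on log2(FPKM + 1) 915 and 2670, against 2008 and 1962 in the report.

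Directions changed for values near 0. *Gas6* was at -0.02 with the length correction and between -0.11 and 0.12 without 1 library, *Megf11* between -0.00 (DESeq2 without Ctrl library 4) and 0.39, and *Mfge8* at 0.01 with either pseudocount. The log2 ratio of *Axl* to *Mertk* was between -0.13 (without Ctrl library 6) and 0.21 (without Ctrl library 2) and also below 0 without *Sox2* cKO library 1. The cause of these shifts was not tested. *Megf10*, *Axl*, *Mertk*, *Tyro3*, *Pros1* and *Gulp1* kept their sign in all 25 alternatives. With the length correction and 1 library left out, however, *Megf10* was between -0.12 and -0.03 and *Tyro3* between -0.11 and -0.01. The signs of *Megf10* and *Tyro3* were thus those of values near 0 in these fits. No paired analysis was possible because the columns carry no replicate numbers of the labels. Counts of single members were as low as 121 in a library (*Gulp1*, Ctrl library 4), and with 3 libraries a group the spread between mice limits the tests.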
